A study of Mus musculus with 72 samples.

Results

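The Schlafen genes Slfn1, Slfn2, Slfn3, Slfn4, Slfn5, Slfn8 and Slfn9 were followed in the blood of irradiated mice. The members were found by the gene name of each probe on the array, which gave 7 of the 31131 named genes, measured by 9 probes. The family was chosen by the Slfn4 signal of the day 1 arrays, which stood far above the controls after 1 Gy neutrons, so the comparisons with the day 1 controls are given as a description, without a test. For 6 of the 7 members at least 1 probe was detected, and 4 of the 7 (Slfn1, Slfn2, Slfn3 and Slfn4) also varied enough across the arrays to enter the main table of 10862 genes. Slfn8 and Slfn9 were detected on every array but varied too little for that table and were taken from a fit of 16098 genes made without the variation filter. Slfn5 was too dim on most arrays to be tested.

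Male C57BL/6 mice, 8 to 10 weeks old when irradiated, received a single whole-body exposure to neutrons or x-rays, or a sham exposure. Sham controls were put in holders on the neutron wheel without beam, and the study describes no separate sham for the x-rays. The x-rays were given at a higher dose rate than the neutrons. The neutron beam was made to resemble the energy spectrum of a fission device and carries a share of gamma rays, so the neutron groups are mixed-field exposures. Blood was drawn by cardiac puncture 1, 3 or 7 days later, and each of the 72 one-colour arrays holds the RNA of 1 mouse. On day 1 there were 5 controls, 6 mice at 0.25 Gy neutrons, 6 at 1 Gy neutrons, 6 at 1 Gy x-rays and 5 at 4 Gy x-rays. The day 3 arrays came from 5 controls, 6 mice at 0.25 Gy neutrons and 5 at 1 Gy x-rays. On day 7 there were 6 controls, 5 mice at 0.25 Gy neutrons, 6 at 1 Gy neutrons, 5 at 1 Gy x-rays and 6 at 4 Gy x-rays.

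Schlafen genes are a mammalian family of interferon-inducible genes expressed in cells of the immune system. In the mouse they lie in 1 cluster on chromosome 11 and fall into short, intermediate and long forms. Slfn1 and Slfn2 are short forms, Slfn2 being known for keeping T cells quiescent. Slfn3 and Slfn4 are intermediate forms, and Slfn4 is known from monocytes, macrophages and other myeloid cells. Slfn5, Slfn8 and Slfn9 are long forms that carry a helicase-like domain.

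Because family members resemble each other, the probes decide what each value can stand for, and those of the members the results turn on are shown 5′ to 3′. The Slfn4 probe lies at chr11:83002974-83003033 and the Slfn3 probe at chr11:83028431-83028490 of mm9, both on the plus strand. Neither shares a run of 16 bases with a probe of any other gene on the array, and the same was found for the Slfn1, Slfn2 and Slfn5 probes. Probes were compared with probes and not with whole transcripts. Whether a probe also takes up the transcript of another member was therefore not tested.
Slfn4 probe: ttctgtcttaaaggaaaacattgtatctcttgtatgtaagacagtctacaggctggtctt
Slfn3 probe: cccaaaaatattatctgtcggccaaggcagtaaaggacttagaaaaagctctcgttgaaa
Slfn1 probe: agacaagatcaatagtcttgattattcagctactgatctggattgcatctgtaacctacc

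The brighter Slfn8 probe, at chr11:82815804-82815863 on the minus strand, and the dimmer of the Slfn9 probes, at chr11:82793914-82793973 on the minus strand, shared a run of 19 bases, shown in capitals. They matched at 36 of the 48 bases of their best ungapped overlap, so signal from one transcript on the other's probe cannot be told apart here. The brighter Slfn9 probe, at chr11:82793812-82793871, did not hold this run, but shared a run of at least 16 bases with a probe of 4930512M02Rik. The brighter Slfn8 probe and the dimmer Slfn9 probe each also shared a run of at least 16 bases with a probe of Psme2b.
Slfn8 brighter probe: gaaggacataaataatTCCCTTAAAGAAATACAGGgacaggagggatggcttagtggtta
Slfn9 dimmer probe: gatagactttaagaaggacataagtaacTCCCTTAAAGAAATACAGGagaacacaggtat
Slfn9 brighter probe: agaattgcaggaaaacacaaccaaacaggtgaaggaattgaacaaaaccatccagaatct

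Among the 7 members, the promoters of the short and intermediate forms differed in their letters from those of the long forms. Whether this split goes with the values below was not tested. Slfn2, a short form, was called in no comparison of the main table. RefSeq windows from 250 bases before to 50 bases after the start of transcription (GRCm38.p6) were found for 7 of the 7 members. Slfn1, Slfn2, Slfn3 and Slfn4 shared the run ACTTCCTGG, which is the longest run common to these windows and was picked after reading them. Each window held it once, against 0.843% of the 32851 windows of that length in the table, and the windows of Slfn5, Slfn8 and Slfn9 did not hold it. The interferon response core, a pair of GAAA letters with any 2 bases between, searched on both strands, occurred in Slfn5, Slfn8 and Slfn9 and in 3.44% of all windows, but in none of the Slfn1 to Slfn4 windows. Its longer form, the same core followed by CT, occurred in Slfn8 and Slfn9 and in 0.271% of all windows. The gamma-activated site TTCNNNGAA, present in 8.3% of all windows, was in none of the 7 genes' windows. The window of Slfn14, a relative outside the 7 members, held neither ACTTCCTGG nor the site, and neither form of the core. A match or its absence is a matter of letters in these windows and shows nothing about binding. The Slfn4 window is chr11:83174936-83175235 and the Slfn3 window chr11:83191080-83191379, both on the plus strand, with ACTTCCTGG in capitals.
Slfn4 promoter: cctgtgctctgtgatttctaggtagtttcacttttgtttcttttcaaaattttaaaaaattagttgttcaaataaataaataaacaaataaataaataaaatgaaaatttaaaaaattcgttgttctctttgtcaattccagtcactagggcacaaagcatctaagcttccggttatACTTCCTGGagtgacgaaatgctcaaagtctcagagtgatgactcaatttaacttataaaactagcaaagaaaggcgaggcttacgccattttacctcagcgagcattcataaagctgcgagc
Slfn3 promoter: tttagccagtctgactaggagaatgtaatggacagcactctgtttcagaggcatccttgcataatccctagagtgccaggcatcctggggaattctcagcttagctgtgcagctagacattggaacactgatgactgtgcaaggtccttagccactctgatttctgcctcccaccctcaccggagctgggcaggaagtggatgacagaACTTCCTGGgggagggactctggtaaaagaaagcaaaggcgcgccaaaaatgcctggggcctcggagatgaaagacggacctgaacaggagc

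For contrast, the Slfn8 window (chr11:83020761-83021060) and the Slfn9 window (chr11:82991781-82992080), both on the minus strand and close to each other in sequence, are shown with their match to the interferon response core in capitals. In both the match lies on the opposite strand of the printed one, so the letters read as its reverse complement.
Slfn8 promoter: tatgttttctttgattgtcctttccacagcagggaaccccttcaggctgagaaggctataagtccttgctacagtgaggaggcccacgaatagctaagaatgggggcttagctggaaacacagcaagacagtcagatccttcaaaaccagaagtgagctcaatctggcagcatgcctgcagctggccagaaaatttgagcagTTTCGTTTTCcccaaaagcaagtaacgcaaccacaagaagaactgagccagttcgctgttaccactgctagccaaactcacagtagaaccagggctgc
Slfn9 promoter: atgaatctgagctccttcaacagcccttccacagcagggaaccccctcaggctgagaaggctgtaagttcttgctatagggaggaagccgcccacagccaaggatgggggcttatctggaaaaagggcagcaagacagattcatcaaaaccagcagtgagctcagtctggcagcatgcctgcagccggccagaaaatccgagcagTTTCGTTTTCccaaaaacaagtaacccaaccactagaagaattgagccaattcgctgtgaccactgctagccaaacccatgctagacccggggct

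A level is given throughout as the log2 of the processed signal minus the median log2 signal of the detected probes of the same array, so that 0 stands for the middle detected probe. Levels of different probes are not set against each other. Between 40.2% and 67.3% of the gene spots of an array were well above background, with the lowest shares (40.2% to 50.3%) after 1 Gy neutrons at day 7. No pair of arrays correlated above 0.992, and none was counted as a duplicate. In 3 arrays the median correlation with the rest of their group was low, at 0.869 (1 Gy x-rays, day 3, replicate 1), 0.897 (0.25 Gy neutrons, day 1, replicate 5) and 0.909 (1 Gy neutrons, day 1, replicate 4), and values without them are given beside those of their groups. A gene was called where limma gave p below 0.001 and a false discovery rate below 5% over all genes tested. T cell, B cell, monocyte and neutrophil markers were present, but transcripts of hepatocytes were also present in varying amounts. The mean level of 13 hepatocyte genes, among them Alb, was between -0.69 and 6.52 in the day 1 controls and between -4.35 and -2.67 in the day 7 controls.

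Slfn4 had the widest spread of group means among the detected members. Its level in the 5 day 1 controls was -2.18, -0.82, -2.05, -0.45 and -1.90. In the 6 mice examined 1 day after 1 Gy neutrons it ran from 2.46 through a median of 3.01 to 4.53, and after 4 Gy x-rays it was 2.43, 1.62, 1.77, 4.14 and 2.84. Every mouse of these 2 groups stood above every control. After the lower doses the levels were between those ends, from -1.77 through -0.38 to 1.04 at 0.25 Gy neutrons and from -0.39 through 0.29 to 1.22 at 1 Gy x-rays. The mice at 0.25 Gy neutrons overlapped with the controls, and those at 1 Gy x-rays were all above them.

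The Slfn4 difference from the day 1 controls was 4.62 on the log2 scale (SE 0.42), or 24.6-fold, after 1 Gy neutrons and 4.04 (SE 0.49), or 16.4-fold, after 4 Gy x-rays. It was 1.73 (SE 0.37) after 1 Gy x-rays and 1.13 (SE 0.46) after 0.25 Gy neutrons, or 1.42 (SE 0.40) without replicate 5 of the latter. As all 4 exposures were set against the same 5 controls, these differences share the controls' spread. In whole blood, fewer cells of a type and less RNA per cell cannot be told apart, and the mean level of 8 B-cell genes differed in the same samples, being 2.14 to 2.91 in the day 1 controls, -1.25 to 0.72 after 1 Gy neutrons and -2.06 to -0.83 after 4 Gy x-rays. The mean level of 8 monocyte genes was 1.23 to 2.15 in these controls, 2.06 to 3.48 after 1 Gy neutrons and 1.65 to 2.88 after 4 Gy x-rays. That of 13 hepatocyte genes was -0.69 to 6.52 in the controls, -0.54 to 7.77 after 1 Gy neutrons and 7.37 to 8.49 after 4 Gy x-rays, and that of 6 acute-phase genes, which the liver makes in inflammation, was -0.45 to 4.56, 3.47 to 7.03 and 6.80 to 8.13. B-cell levels thus lay below all controls in both groups, acute-phase and hepatocyte levels above them after 4 Gy x-rays, and the monocyte levels overlapped. The part of such shifts in the Slfn4 level was not tested. Without replicate 4 of the 1 Gy neutron mice the Slfn4 difference was 4.59 (SE 0.45), and among the arrays scanned on the same date, 4 against 5, it was 4.69. The controls and the x-ray mice of day 1 shared no scan date, so that for those comparisons scan date and exposure cannot be told apart.

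Slfn3, the neighbour of Slfn4 in the cluster, followed the same order on day 1. The controls were at -2.94, -2.39, -3.33, -2.30 and -3.40. The 1 Gy neutron mice ran from 0.52 through 1.18 to 2.52 and the 4 Gy x-ray mice were at 0.36, -0.58, -0.24, 2.08 and 0.94. Again neither group overlapped with the controls. The difference was 4.11 (SE 0.36), or 17.3-fold, after 1 Gy neutrons and 3.39 (SE 0.45), or 10.4-fold, after 4 Gy x-rays. It was 1.39 (SE 0.30) after 1 Gy x-rays and 0.96 (SE 0.37) after 0.25 Gy neutrons. Leaving out the arrays that stood apart gave 4.07 (SE 0.38) after 1 Gy neutrons and 1.18 (SE 0.31) after 0.25 Gy neutrons.

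Among the 4 members of the main table, 3 (Slfn4, Slfn3 and Slfn1) met the call rule 1 day after 1 Gy neutrons, where 17.5% of all genes did. After 4 Gy x-rays 2 (Slfn4 and Slfn3) met it, against 35.1% of all genes, and after 1 Gy x-rays the same 2, against 7.65%. After 0.25 Gy neutrons none of the 4 met it by limma or by the random variance test, 2 having an unadjusted p below 0.05, and only 0.00921% of all genes did. These counts describe the contrasts that led to the choice of the family, and nothing is read from them. The 1 Gy x-ray count fell to 0 without control replicate 1, 3 or 5 or x-ray replicate 4, 5 or 6, and to 1 without x-ray replicate 2.

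**Figure D1:**
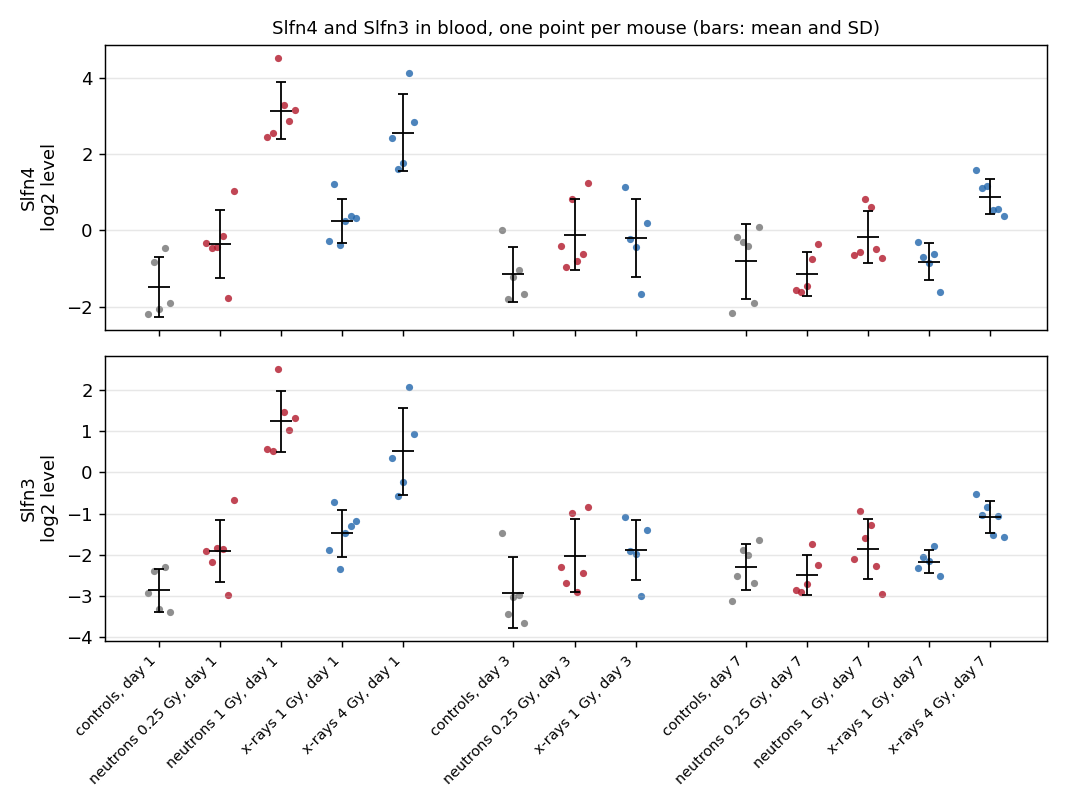
Levels of Slfn4 and Slfn3 (log2, relative to the array median of detected probes) in each mouse, by day and exposure, with the group mean and SD. At day 1 the mice given 1 Gy neutrons or 4 Gy x-rays lie above all controls, and at day 7 the 4 Gy x-ray mice, with Slfn4 between 0.38 and 1.58, lie above the other exposure groups' means.

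Comparisons that did not use the day 1 controls were tested. The x-ray dose was compared at day 1 in the 4 Gy and 1 Gy mice, whose Slfn4 levels, given above, did not overlap. Slfn4 was higher at 4 Gy by 2.31 (SE 0.43), or 4.94-fold, with an adjusted p of 0.001673 from limma, and Slfn3 by 2.00 (SE 0.44), with an adjusted p of 0.004086. For Slfn3 the 1 Gy mice lay below the 4 Gy mice on average but the Slfn3 call was lost when any one of 7 of the 11 mice was left out (1 Gy x-ray replicates 1, 3, 4, 5 and 6 and 4 Gy replicates 1 and 5), the difference then running from 1.61 to 2.27, whereas Slfn4 was called in each case. Slfn1 differed by 0.23 (SE 0.36) and Slfn2 by -0.02 (SE 0.30). Thus 2 of the 4 members of the main table were called, against 17.6% of all genes. On the only scan date shared, with 1 array at 4 Gy and 4 at 1 Gy, the differences were 2.25 for Slfn4 and 1.83 for Slfn3, and with scan date as a block neither was called.

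At day 7 Slfn4 and Slfn3 were again higher at 4 Gy x-rays than at 1 Gy. The Slfn4 level after 1 Gy was -0.30, -0.70, -0.86, -0.61 and -1.60, and after 4 Gy it ran from 0.38 through 0.83 to 1.58, without overlap. The Slfn3 level after 1 Gy was -2.33, -2.06, -2.16, -1.79 and -2.52, and after 4 Gy it ran from -1.56 through -1.04 to -0.52, also without overlap. The differences were 1.71 (SE 0.27) for Slfn4, with an adjusted p of 0.001813 by limma, and 1.08 (SE 0.22) for Slfn3, with an adjusted p of 0.005165. Both stayed called when any one of the 11 mice was left out. On the scan date that held all 6 arrays at 4 Gy and 4 of the 5 at 1 Gy, the differences were 1.76 and 1.18. Slfn1 was higher by 0.84 (SE 0.23), and its 4 Gy mice (lowest -0.37) all stood above its 1 Gy mice (highest -0.61), but its p of 0.003224 by limma missed the threshold. The count was thus 2 of the 4 members, against 9.54% of all genes.

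Whether the x-ray dose difference itself changed from day 1 to day 7 was tested on the 16098 genes. It was smaller at day 7 by 0.60 (SE 0.53) for Slfn4 and by 0.92 (SE 0.51) for Slfn3, and neither passed (adjusted p of 0.435 and 0.2055 by limma). By limma none of the 6 members tested passed, their unadjusted p-values being 0.08538 or higher, while 8.7% of all genes did.

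The 4 Gy x-ray mice of day 7 also exceeded the day 7 controls. Slfn4 in the 6 controls ran from -2.18 through -0.36 to 0.09, so that every irradiated mouse (lowest 0.38) was above every control, and the rise was 1.70 (SE 0.40), or 3.25-fold, with an adjusted p of 0.005308 by limma. Slfn3 ran from -3.13 through -2.26 to -1.65 in the controls, again below all irradiated mice, and rose by 1.22 (SE 0.27), or 2.33-fold, with an adjusted p of 0.003531. Slfn1 ran from -1.75 through -0.94 to -0.80 in the controls and from -0.37 through -0.19 to 0.25 after irradiation, and rose by 1.01 (SE 0.21), or 2.02-fold, with an adjusted p of 0.002202. The groups did not overlap for any of these 3 genes, and 3 of the 4 members of the main table were called, against 17.6% of all genes. The median difference over these 4 members was 1.12, and over all genes -0.04.

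The Slfn4 rise at day 7 was near the threshold. Leaving out any one of 9 of the 12 mice ended its call and any one of 7 ended that of Slfn3, while Slfn1 stayed called throughout, and the count of called members was 1 without control replicate 1 or 5 or 4 Gy replicate 1, 2, 3 or 5. The Slfn4 difference without 1 mouse ran from 1.43 to 1.88. The 4 Gy arrays and the control arrays were scanned on different dates, so scan date and exposure cannot be told apart for this comparison. Hepatocyte transcripts varied widely among the 4 Gy mice, from -4.84 to 6.98, and without the day 7 arrays above a mean hepatocyte level of 2 (4 Gy replicates 2, 4 and 6) the differences were 1.92 (SE 0.53) for Slfn4, 1.18 (SE 0.27) for Slfn1 and 1.501 (SE 0.33) for Slfn3, of which Slfn3 was called.

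After the other exposures Slfn4 and Slfn3 were close to the day 7 controls. After 1 Gy neutrons Slfn4 ran from -0.71 through -0.53 to 0.81, and after 0.25 Gy neutrons it was -1.56, -1.61, -1.45, -0.75 and -0.34. Both groups overlapped with the controls. The difference was 0.65 (SE 0.44, adjusted p of 0.2239 by limma) in the mice given 1 Gy neutrons and -0.003 in those given 1 Gy x-rays, and for Slfn3 it was 0.45 (SE 0.35) and 0.14 (SE 0.27). These values move with the scaling, since centring on the spike-in probes in place of the array median gave -1.30 for Slfn4 after 1 Gy neutrons and shifted the median of all genes in that comparison from 0.31 to -2.03.

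Of the 4 members of the main table, none was called against the day 7 controls after 1 Gy neutrons, 1 Gy x-rays or 0.25 Gy neutrons, by limma or by the random variance test, where 38.4%, 4% and 0.0276% of all genes were called. In each of these comparisons 1 member, Slfn2, had an unadjusted p below 0.05. The median difference of the 4 was 0.38 after 1 Gy neutrons, against 0.31 for all genes.

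**Figure D2:**
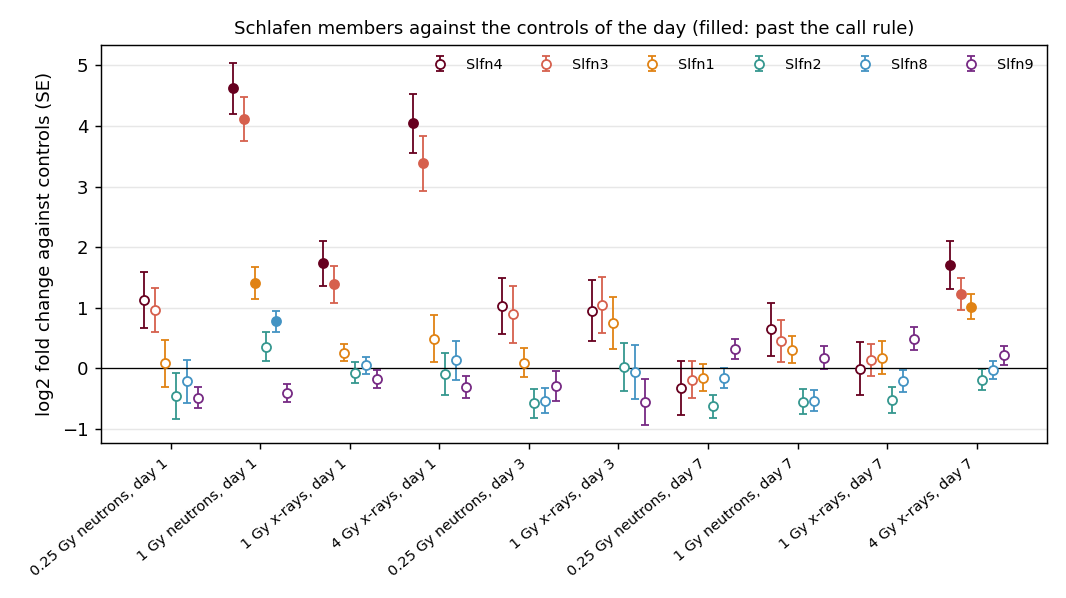
Log2 difference of each tested Schlafen gene from the controls of the same day, with its SE, by exposure and day. Filled points met the call rule, which for Slfn8 (1 Gy neutrons, day 1) was met in the fit without the variation filter. Slfn4 and Slfn3 reach 4.62 and 4.11 after 1 Gy neutrons at day 1, and Slfn1, Slfn3 and Slfn4 are filled in the day 7 mice given 4 Gy x-rays.

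At day 3, Slfn4 in the controls was 0.01, -1.79, -1.23, -1.04 and -1.68. The mice at 0.25 Gy neutrons ran from -0.96 through -0.51 to 1.26, and those at 1 Gy x-rays were at 1.15, -0.23, -0.43, -1.66 and 0.19. Both groups overlapped with the controls, of which 1 stood well above the other 4. The difference was 1.03 (SE 0.45, adjusted p of 0.1825 by limma) after 0.25 Gy neutrons and 0.95 (SE 0.50) after 1 Gy x-rays, and 0.61 (SE 0.44) when x-ray replicate 1, the array least like its group, was left out. For Slfn3 it was 0.89 (SE 0.47) and 1.04 (SE 0.46), the latter being 0.84 (SE 0.46) without that array. None of the 4 members was called in either comparison by limma or the random variance test, with 2 and 1 at an unadjusted p below 0.05, against 1.17% and 1.91% of all genes. The change of the 0.25 Gy neutron effect from day 3 to day 7 was -1.36 (SE 0.67) for Slfn4 and did not pass (adjusted p of 0.2521 by limma), nor did any of the 6 members, against 1.55% of all genes. The change of the 1 Gy x-ray effect was -0.95 (SE 0.69) for Slfn4, and its smallest unadjusted p among the members was that of Slfn9 (0.02279, with a change of 1.05, SE 0.43), which did not pass either, against 2.16% of all genes. The day 3 part of that change, -0.56 for Slfn9, was -0.21 (SE 0.24) without x-ray replicate 1.

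The radiation types were compared directly at day 7. With 1 Gy neutrons against 4 Gy x-rays, Slfn4 was at a mean of -0.17 (SD 0.69, n = 6) against 0.89 (SD 0.47, n = 6), a difference of -1.06 (SE 0.31). Its adjusted p was 0.008866 by limma, but its p of 0.004574 missed the call rule. The difference was -0.70 (SE 0.18) for Slfn1, with a p of 0.001444 by limma, and -0.77 (SE 0.31) for Slfn3. None of the 4 members was called by limma or the random variance test, 3 had an unadjusted p below 0.05, and 41.9% of all genes were called. Without neutron replicate 3 Slfn4 was called, and without neutron replicate 4 Slfn1 was. With 1 Gy neutrons against 1 Gy x-rays none was called and none had an unadjusted p below 0.05, against 23% of all genes called. With 1 Gy against 0.25 Gy neutrons none was called by limma or the random variance test, and 2, Slfn4 and Slfn1, were below 0.05, against 31.1%. In that last comparison the Slfn4 difference was 0.97.

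Ordered by their mean Slfn4 level, the 13 groups began with 1 Gy neutrons at day 1 (3.14, SD 0.75), 4 Gy x-rays at day 1 (2.56, SD 1.01), 4 Gy x-rays at day 7 (0.89, SD 0.47) and 1 Gy x-rays at day 1 (0.26, SD 0.58). They ended with the day 1 controls (-1.48, SD 0.79). The first and second differed by 0.58, less than their pooled SD of 0.89, while the steps from the second to the third group and from the third to the fourth were larger than their pooled SDs. From the fourth place to the last, no neighbours differed by more than their pooled SD. For Slfn3 the same 4 groups came first in the same order, and only the step from the second to the third group was larger than its pooled SD. These orders are a description, since Slfn4 was picked for this pattern.

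Slfn1, a short form, was the third member above the controls on day 1. The controls were at -0.98, -0.53, -0.85, -0.57 and -0.89 and the 1 Gy neutron mice ran from -0.08 through 0.57 to 1.57, all above them. The difference was 1.40 (SE 0.27), or 2.64-fold, and 1.22 (SE 0.19) without neutron replicate 4. After 4 Gy x-rays the mice were at 0.17, -1.18, -1.20, 1.06 and -0.21, on both sides of the controls, with a difference of 0.49 (SE 0.39). At day 7, after 1 Gy neutrons, Slfn1 ran from -1.17 through -0.85 to -0.45 and overlapped with the controls, with a difference of 0.31 (SE 0.22).

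Slfn2, the quiescence factor and the other short form, differed little, and at day 7 its means after irradiation were below that of the controls. In the day 7 controls it ran from 2.02 through 2.40 to 2.84. Mice given 0.25 Gy neutrons were at 2.09, 1.70, 1.73, 1.49 and 1.95, and mice given 1 Gy x-rays at 2.34, 1.99, 1.89, 1.81 and 1.42. Slfn2 ran from 1.46 through 1.89 to 2.27 after 1 Gy neutrons. Most mice of these groups were below the lowest control, with some overlap in each group. The differences were -0.62 (SE 0.19, adjusted p of 0.09359 by limma), -0.53 (SE 0.21, adjusted p of 0.1429) and -0.55 (SE 0.21, adjusted p of 0.03599), of which none met the call rule. They are measured against the same 6 controls. After 4 Gy x-rays the difference was -0.19 (SE 0.17). At day 1 it was 0.36 (SE 0.24) after 1 Gy neutrons, 0.25 (SE 0.21) without neutron replicate 4, and -0.09 and -0.07 after 4 and 1 Gy x-rays. After 0.25 Gy neutrons it was -0.45, which rested on 1 array, being -0.12 (SE 0.20) without replicate 5.

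Slfn8, a long form, was at 0.87, 0.96, 1.26, 1.13 and 1.12 in the day 1 controls by its brighter probe. After 1 Gy neutrons it ran from 1.40 through 1.95 to 2.25, above all controls, and after 4 Gy x-rays it was 1.39, 0.46, 0.60, 2.43 and 1.12. Only the neutron group stood apart. The difference was 0.78 (SE 0.17), or 1.72-fold, after 1 Gy neutrons and met the call rule in the fit without the variation filter, where 16.3% of genes did, but not without neutron replicate 4 (0.70, SE 0.17). The second Slfn8 probe, at chr11:82830985-82831044, differed by 0.15 (SE 0.24) in the same comparison. At day 7 Slfn8 had a mean of 0.34 (SD 0.30, n = 6) after 1 Gy neutrons and 0.88 (SD 0.29, n = 6) in the controls, a difference of -0.54 (SE 0.17), with an adjusted p of 0.01826 by limma and a p of 0.009019 that missed the call rule. The 2 Slfn8 probes correlated at r = 0.77 over 71 arrays.

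Slfn9, the close relative of Slfn8, differed little between groups. By its brighter probe it was 1.40, 0.81, 1.00, 1.06 and 1.07 in the day 1 controls and ran from 0.50 through 0.59 to 1.07 after 1 Gy neutrons, with overlap. The difference was -0.40 (SE 0.15) by this probe and -0.59 (SE 0.16) by the dimmer one. At day 7 it was 0.49 (SE 0.19) after 1 Gy x-rays, with an adjusted p of 0.123 by limma, and the dimmer probe gave 0.48 (SE 0.16). The 2 Slfn9 probes correlated at only r = 0.35 over 72 arrays, and the dimmer one shares the run with Slfn8 shown above.

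Slfn5 was well above background on 22 of the 72 arrays, and its low signals are bounds rather than levels. It was well above background in 6 of 6 mice 1 day after 1 Gy neutrons (from -4.92 through -3.42 to -2.48), in 3 of 5 after 4 Gy x-rays and in 1 of the 5 controls. At day 7 it was well above background in 4 of 6 mice after 4 Gy x-rays and on none of the 22 other arrays of that day. There the dim group was set at the higher of its own signal and the lowest signal well above background on each array. The signal after 4 Gy x-rays then came to 1.40-fold that of the controls and 1.21-fold that of the 1 Gy x-ray mice. The brighter group kept its own signals, also on arrays not well above background, so these values are not strict lower bounds. At day 3, 2 of the 5 controls and 2 of the 5 mice at 1 Gy x-rays were well above background, and none of the 6 at 0.25 Gy neutrons. Reckoned in the same way, the controls came to 1.11-fold the signal of the latter. No test was made for Slfn5.

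**Figure D3:**
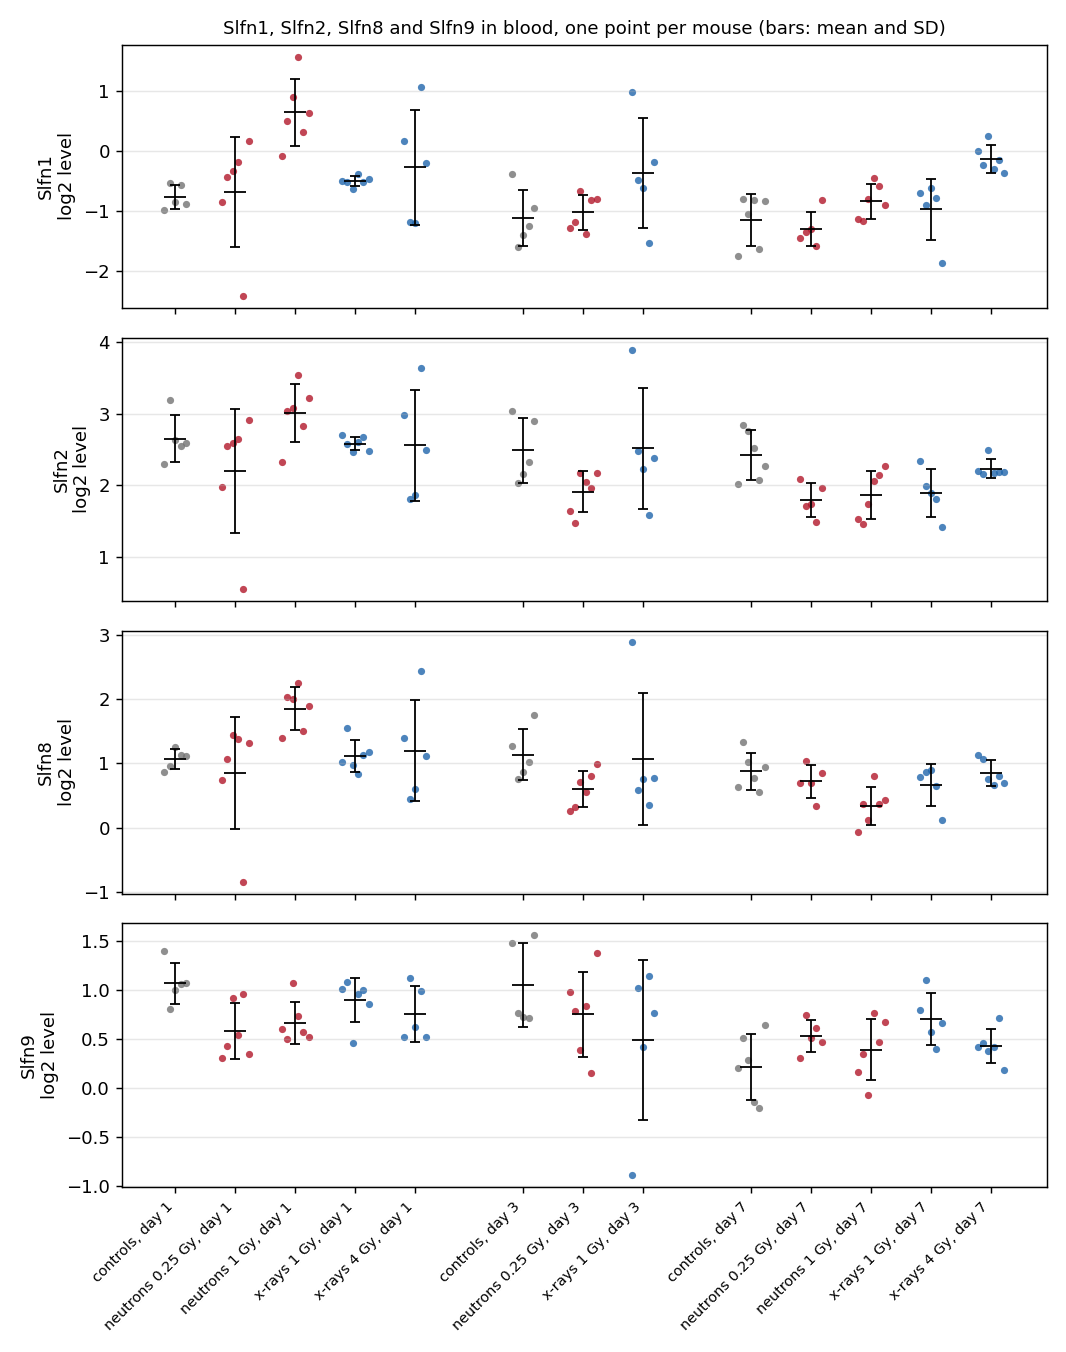
Levels of Slfn1, Slfn2, Slfn8 and Slfn9 (log2, relative to the array median of detected probes) in each mouse, by day and exposure, with the group mean and SD. The mean level of Slfn1 is highest in the day 1 mice given 1 Gy neutrons and, among the day 7 mice, in those given 4 Gy x-rays, while Slfn9 stays within the range from -0.89 to 1.56.

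Relatives outside the chosen members were looked at on the same array. Slfn14, a ribosome-associated nuclease known from reticulocytes and platelets, was in the day 7 controls at -4.59 through -4.05 to -3.13 and 7 days after 1 Gy neutrons at -2.48 through -1.54 to -0.89, without overlap. It rose by 2.34 (SE 0.30), or 5.06-fold, with an adjusted p of 2.106e-05 by limma, where 38.4% of all genes were called. It was also called higher after 1 Gy neutrons than after 1 Gy x-rays (1.42, SE 0.30), 4 Gy x-rays (1.43, SE 0.29) and 0.25 Gy neutrons (1.79, SE 0.28). In the same mice the mean level of 8 of 8 red-cell genes was 5.20 to 6.40, against 2.65 to 3.44 in the controls, and their part in the Slfn14 level was not tested. The pseudogene Slfn10-ps was not called in any comparison, its largest differences at day 7 being 0.51 (SE 0.18) for 4 Gy x-rays against controls and -0.67 (SE 0.18) for 1 Gy neutrons against 4 Gy x-rays. Slfnl1, a Schlafen-like gene on another chromosome, was well above background on 3 of the 72 arrays. None of these was a day 7 array, yet its signal differed by 2.26 between the 1 Gy neutron mice and the controls of day 7. The median of all genes there was 0.31, or 1.07 without the detection filter and -2.03 with spike-in centring. The part of such a shift in the Slfn14 difference was not tested.

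Across the 72 arrays the gene whose level was most like that of Slfn4, of 10861 compared by Pearson correlation, was Slfn3, at r = 0.97. Spearman's rho was 0.94, and r was 0.96 without the 2 arrays farthest from the median. It stayed first after the group means were removed (r = 0.89), so mice of one group that were high in Slfn4 were high in Slfn3. The next 4 across all arrays were Oas2 (0.91) and Oas1a (0.87), antiviral enzymes induced by interferon, Il1r2 (0.86), a decoy receptor for interleukin 1 on myeloid cells, and Rtp4 (0.85), also interferon-induced. Within groups the next 4 were the chemokine receptor Ccr1 (0.85) and the myeloid cell surface genes Cd33 (0.84), Clec4e (0.83) and Lilr4b (0.82). These correlations are descriptions. All values of an array share its centring, its RNA and its mix of blood cells. Whether the Slfn3 or Slfn4 probe also takes up the other's transcript was not tested.

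Within groups the other members paired differently. Slfn1 and Slfn2, the short forms, correlated at r = 0.91, Slfn2 and Slfn8 at 0.87, and Slfn1 and Slfn4 at 0.77. Slfn9 correlated with no other member beyond the range from -0.20 to -0.01.

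The genes of the interferon pathway, which can induce Schlafen genes, were followed from ligands to targets. Of 10 interferon genes listed, 9 were on the array and 4 were in the main table, and of the receptors 1 of 6 was. No ligand or receptor was called by limma or the random variance test against the controls of day 3 or day 7, where 0 to 2 of the 4 ligands, and the receptor in 1 comparison, had an unadjusted p below 0.05. The shares of all genes called in these comparisons ran from 0.0276% to 38.4%. Against the day 1 controls 1 ligand, Ifng, met the call rule after 1 Gy x-rays (1.29, SE 0.21), where 7.65% of all genes did. At day 7 another, Ifna1, was higher after 1 Gy neutrons than after 4 Gy x-rays (1.44, SE 0.27, adjusted p of 0.000383 by limma). There 41.9% of all genes were called, and their median difference was 0.26, or 1.45 without the detection filter and -2.39 with spike-in centring. Both ligands were named after their values were seen. Of the 15 signalling genes 6 were tested. At day 7 Irf7, an activator of interferon genes, rose after 1 Gy neutrons by 1.22 (SE 0.25, adjusted p of 0.0008167 by limma). Socs1, a feedback inhibitor, fell there by 0.74 (SE 0.16, adjusted p of 0.001212). No other of the 6 was called in that comparison, against 38.4% of all genes. None of the 6 was called in the day 7 mice given 4 Gy x-rays by limma or the random variance test, although all 6 had an unadjusted p below 0.05. Their median difference was -0.45, against -0.04 for all genes, of which 17.6% were called.

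Of the 33 interferon-stimulated genes 29 were tested. Against the day 1 controls 22 were higher and 0 lower after 1 Gy neutrons (17.5% of all genes met the rule there), with a median difference of 1.53 against 0.05 for all genes, and 14 were higher and 1 lower after 4 Gy x-rays (35.1% of all genes), with a median of 1.21. At 1 Gy x-rays the rule was met by 5, of which 4 were higher, against 7.65% of all genes. At 0.25 Gy neutrons it was met by none (limma and random variance test, with 9 at an unadjusted p below 0.05), against 0.00921% of all genes. At day 3 none was called by either test, with 9 below 0.05 in the neutron comparison and 6 in the x-ray comparison. Of all genes, 1.17% and 1.91% were called there. In the tested comparison of 4 against 1 Gy x-rays at day 1, 6 of the 29 rose and 0 fell. Their median difference was 0.72, against 0.06 for all genes. With both directions counted, 17.6% of all genes were called there, 26.0% of these higher. Called higher were thus 497 of all 10862 genes, a smaller share than the 6 of 29.

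At day 7 interferon-stimulated genes were called in the 1 Gy neutron mice and in the 4 Gy x-ray mice. With both directions counted, their shares were below those of all genes. With rises alone counted, they were slightly above. After 1 Gy neutrons 9 of 29 rose, against 2723 of all 10862 genes, and after 4 Gy x-rays 3 of 29, against 984. After 1 Gy x-rays 1 of the 29 was called, higher, against 4% of all genes. After 1 Gy neutrons, where no Schlafen member of the main table was called, 9 of the 29 rose and 0 fell, among them Isg15 (2.74, SE 0.31, adjusted p of 8.993e-06 by limma), an interferon-induced ubiquitin-like modifier, Oas3 (2.42, SE 0.23) and the antiviral enzyme Rsad2 (2.37, SE 0.27). In that comparison 38.4% of all genes were called, 65.4% of these higher, and the median of the 29 was 0.19, against 0.31 for all genes. After 4 Gy x-rays, where 3 members were called, 3 of the 29 rose, which were Oas3 (1.76, SE 0.20), Herc6 (1.09, SE 0.17) and Lgals3bp (1.22, SE 0.14), and Mx2 fell by 0.68 (SE 0.15). Here 17.6% of all genes were called, 51.6% of these higher, and the median of the 29 was 0.26, against -0.04. Both exposures share the 6 controls. Set directly against 4 Gy x-rays, 1 Gy neutrons gave 4 higher and 1 lower of the 29, against 41.9% of all genes called, while the differences of Slfn4, Slfn3 and Slfn1, given above, were negative and not called.

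**Figure D4:**
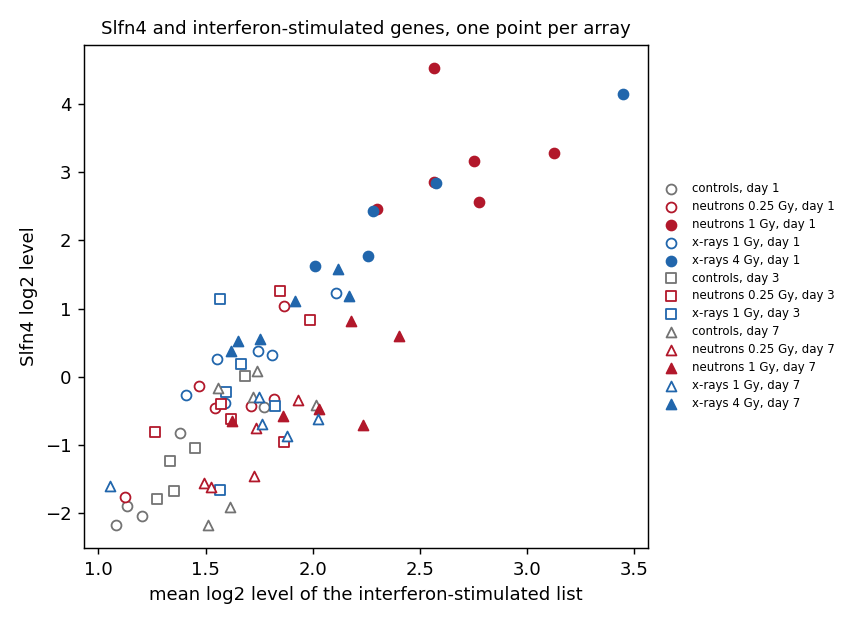
Slfn4 level against the mean level of the 33 interferon-stimulated genes (both log2, relative to the array median of detected probes) for each of the 72 arrays, marked by exposure and day. The 1 Gy neutron mice of day 1 lie at the upper right, with list levels of 2.30 to 3.13, and the mice of day 7 at 4 Gy x-rays have list levels of 1.62 to 2.17, close to the 1.51 to 2.01 of their controls.

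Markers of the blood cells moved in the same mice. At day 7 the mean level of the monocyte list, with 8 of 8 genes well above background on every array of that day, was 1.89 to 2.84 in the controls, 2.59 to 3.13 after 4 Gy x-rays, 1.93 to 2.76 after 1 Gy x-rays and 2.34 to 3.24 after 1 Gy neutrons. The neutrophil list, with 8 to 10 of its 10 genes well above background, was 1.26 to 1.97 in the controls, 1.80 to 3.14 after 4 Gy x-rays and 2.53 to 3.57 after 1 Gy neutrons. The B-cell list was 2.24 to 2.57 in the controls, -0.58 to 0.07 after 4 Gy x-rays and 0.36 to 0.92 after 1 Gy neutrons. Among the genes tested after 4 Gy x-rays, 4 of 8 monocyte genes rose, with a median difference of 0.51, 2 of 8 neutrophil genes rose, with a median of 0.97, and 7 of 7 B-cell genes fell, against 17.6% of all genes called and their median of -0.04. The monocyte levels of controls and 4 Gy mice overlapped through 1 control, at 2.84, the other 5 being at 2.49 or lower. With the group means removed, Slfn4 correlated over the 72 arrays with the monocyte list at r = 0.74, the neutrophil list at 0.65, the interferon-stimulated list at 0.65, the B-cell list at -0.007 and the hepatocyte list at -0.28. Their part in the Slfn4 differences was not tested.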

How the data were processed

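The authors hybridised Cy3-labelled RNA from 72 mice to one-colour Agilent arrays and deposited Feature Extraction (12.0.2, per the submitters' processing notes) tables of spot intensity, background-subtracted by that software and not normalized between arrays. Intensities were log2-transformed, spots of 1 probe averaged and each array centred on its median of detected probes. As in the methods, probes flagged on over 25% of the 56 arrays of days 1 and 7, or beyond 1.5-fold of their median on under 20% of them, were left out, and the brightest probe stood for a gene. Schlafen probes were chosen by brightness before the variation filter, since that filter would have replaced the bright Slfn8 probe. The 2 groups of each comparison were fitted with limma 3.58.1 in R 4.3.3 (lmFit, eBayes, two-sided), with Benjamini-Hochberg adjustment over all genes tested. The random variance test named in the methods was an alternative, beside other background corrections, scalings, filters, blocks and left-out mice. Each of the 15 comparisons used 5 or 6 arrays a group, and their number limits the precision. Named genes were the members, their relatives, the called interferon genes with the largest changes at day 7 (up to 3 a list) and the 5 genes most like Slfn4. The members and lists were chosen with earlier results of these data known. Tests were tried on simulated data. The deposited matrix of processed values was not used, since most of its columns followed the array of another sample.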

Additional observations from a re-analysis of the deposited data

Results flagged for a closer look

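Among the levels of the 6 detected members in 13 groups, 78 sets in all, 5 held a mouse far from the rest of its group by Dixon's criterion, where chance gives about 3.9. Slfn8 was at -0.84 in replicate 5 of 0.25 Gy neutrons at day 1, the nearest of the others being at 0.74, and at 2.88 in replicate 1 of 1 Gy x-rays at day 3, against 0.78. These are 2 of the 3 arrays that correlated least with their groups. Slfn1 was at -1.86 in replicate 5 of 1 Gy x-rays at day 7, against -0.90. Slfn2 was at 2.49 in replicate 3 of 4 Gy x-rays at day 7, against 2.19. Slfn9 was at 0.46 in replicate 3 of 1 Gy x-rays at day 1, against 0.85.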

How the results depend on the processing

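Of 199 counts of called members under 15 other settings, 173 stayed within 1.5 times. Of 182 called log2 differences 155 stayed called, 27 did not and 0 changed sign. Both totals include the comparisons with the day 1 controls, which are a description only. Among the tested comparisons, the fewest calls were kept by Slfn4 in 4 Gy x-rays against controls at day 7 (7 of 13 settings). The most were kept by Slfn4 in 4 against 1 Gy x-rays at day 7 (14 of 14). Runs with 1 mouse left out are not in these totals and are given separately. The cause of each move was not tested. For 4 Gy x-rays against controls at day 7 the 3 called members became 0 with normexp background correction, 0 with the replicate block, 1 without the arrays high in hepatocyte transcripts and 1 to 3 with 1 mouse left out. For 1 Gy x-rays against controls at day 1 the 2 became 0 with normexp, 1 with spike-in centring, 0 with scan date and 0 with slide as a random block, and 0 to 2 with 1 mouse left out. For 4 against 1 Gy x-rays at day 1 the 2 became 0 with normexp, 1 with the 75th percentile, 1 with dim spots left out, 0 with scan date as a block, 0 with the replicate block and 1 to 2 with 1 mouse left out. At day 7 the 2 became 1 with normexp, 5 with spike-in centring and 1 with the replicate block, and stayed at 2 whichever mouse was left out.

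Where none was called, spike-in centring gave 3 lower after 0.25 Gy neutrons, 4 lower after 1 Gy neutrons and 1 lower after 1 Gy x-rays against the day 7 controls. It gave 3 lower for 1 Gy neutrons against 1 Gy x-rays, 6 lower against 4 Gy x-rays and 1 lower against 0.25 Gy neutrons. In 1 Gy neutrons against 4 Gy x-rays spike-in centring moved the median of all genes from 0.26 to -2.39 and, in 4 against 1 Gy x-rays at day 7, raised the share of calls that were higher from 41.9% to 99.0%. With dim spots left out, 2 (Slfn2 and Slfn8, lower) were called after 1 Gy neutrons and 4 lower for 1 Gy neutrons against 4 Gy x-rays, where quantile normalization gave 1, no variation filter 1 and left-out mice 0 to 1. Normexp gave 1, Slfn3 higher, for 1 Gy neutrons against 1 Gy x-rays. With 1 mouse left out the count stayed 3 to 3 after 1 Gy neutrons and 2 to 2 after 4 Gy x-rays at day 1, and 0 to 0 in the other comparisons. Replicate numbers did not pair the mice, the correlations of same-numbered mice running from -0.622 to 0.643 with a median of -0.0986 over 78 pairs, and outside the counts given the replicate block changed no count beyond 1.5 times. The arrays left out for hepatocyte transcripts and the slide block were chosen after seeing the data. Precision is limited by 5 or 6 mice a group and, for Slfn5, by signal near background.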
